A study of Mus musculus with 2 samples.

Results

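CTCF binding was examined at 8 imprinted mouse genes, Grb10, Igf2r, Rasgrf1, Mest, Peg10, Sgce, Plagl1 and Impact, of 22367 protein-coding genes in the GENCODE M1 annotation of mm9. The genes were listed by name and not by their signal. For each, the region was the gene body with 50 kb on each side, and the deposited binding peaks whose summit lay in it were taken, 18 of 33788. Peg10 and Sgce are neighbours with overlapping regions, so the 8 genes make 7 separate regions that cover 1185 kb together.

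The data come from ChIP-seq of mouse R1/E embryonic stem cells (ESCs), grown without feeder cells with LIF. These ESCs carry CTCF fused at its C-terminus to a GFP-containing LAP tag and expressed from a stably integrated BAC, so the tagged protein is made in addition to that of the cells' own gene. GFP-positive cells were sorted from the resistant clones, and it is not stated whether the line is a single clone. Chromatin was crosslinked with 1% formaldehyde and precipitated with a goat anti-eGFP antibody in 1 library (8391191 tags) and with goat IgG in 1 library (7988889 tags). The labels also describe the control as input DNA, and it is read here as the IgG precipitation. The paper's ChIP methods name RAD21-tagged ESCs for both the GFP and the IgG antibody. Whether the IgG library came from the CTCF-tagged line was not established here, so the ratios below may compare 2 lines. There was no replicate of either, so all intervals below are 95% intervals for counting error between these libraries, and no value says how much cultures vary. These 2 libraries measure no RNA, and neither the ESC identity nor the expression of the 8 genes was checked here. The files list tag positions without bases, and maternal and paternal alleles therefore cannot be told apart.

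Imprinted genes are expressed mainly from a single parental copy, and the choice is set by DNA methylation at imprinting control regions that differs between egg and sperm. CTCF is a zinc-finger protein that binds a long DNA motif and acts at insulators and chromatin loop anchors together with cohesin. At some imprinted loci it binds the unmethylated allele only, and the direction of its motif is known to matter for loops.

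The motifs under the peaks are shown first, because their strand gives each site a direction. The matrix used to find them had the consensus TGGCCACCAGGGGGCACTA, read in what is called here the motif direction. Each line below runs 5′ to 3′ on the motif strand, with the 19-bp motif in capitals, 5 bases of mm9 on either side in lower case, and coordinates of the capitals. The Grb10 tallest, Peg10 and Plagl1 tallest lines belong to the highest peaks of their regions, and the others were chosen after their values had been seen.
Grb10 tallest, chr11:11873606-11873624, minus strand: agggaCTGCCACCAGGGGTCGGCAcagcc
Grb10 second, chr11:11875089-11875107, minus strand: tagaaAAGACACTAGATGGTGCTAtgaac
Igf2r within Airn, chr17:13003525-13003543, minus strand: aggttATACCACAAGGGGGCACTAttgct
Igf2r body, chr17:12882593-12882611, minus strand: gattgTGGCCAACAGGGGGAGCATgtgaa
Peg10, chr6:4749553-4749571, minus strand: tacagGTGCCAGAAGAGGGCGCTGgacca
Plagl1 tallest, chr10:12807200-12807218, plus strand: ctcaaAGGCCACTAGAGGGTGCACgtgat
Plagl1 far upstream, chr10:12791024-12791042, plus strand: tgaggGTGCCAGAAGAGGGCAGTAgatac
Plagl1 exon, chr10:12847309-12847327, minus strand: tgtgtGGACCACCAGGTGGCGACGcacat

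The 8 regions held 1 to 4 CTCF peaks each, most of them of ordinary height. The number of peaks per region was 4 for Igf2r, 3 for Plagl1 and for Impact, 2 for Grb10, for Rasgrf1 and for Mest, and 1 for Peg10 and for Sgce. Summit heights, which the authors deposited as the tag pileup at the summit, ran from 7 to 31 tags with a median of 11.5. Over the deposited list the median was 13, with quartiles of 10 and 17. Of the 18 summits, 10 lay in introns, 1 in an exon, 6 between genes and 1 within 1 kb of a gene start, that of the microRNA gene Mir335. Among summits near the edges of the regions, one of Impact was inside at 46853 bp upstream of the gene start, and one past Rasgrf1 was outside, at 50111 bp beyond the gene end.

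**Figure D1:**
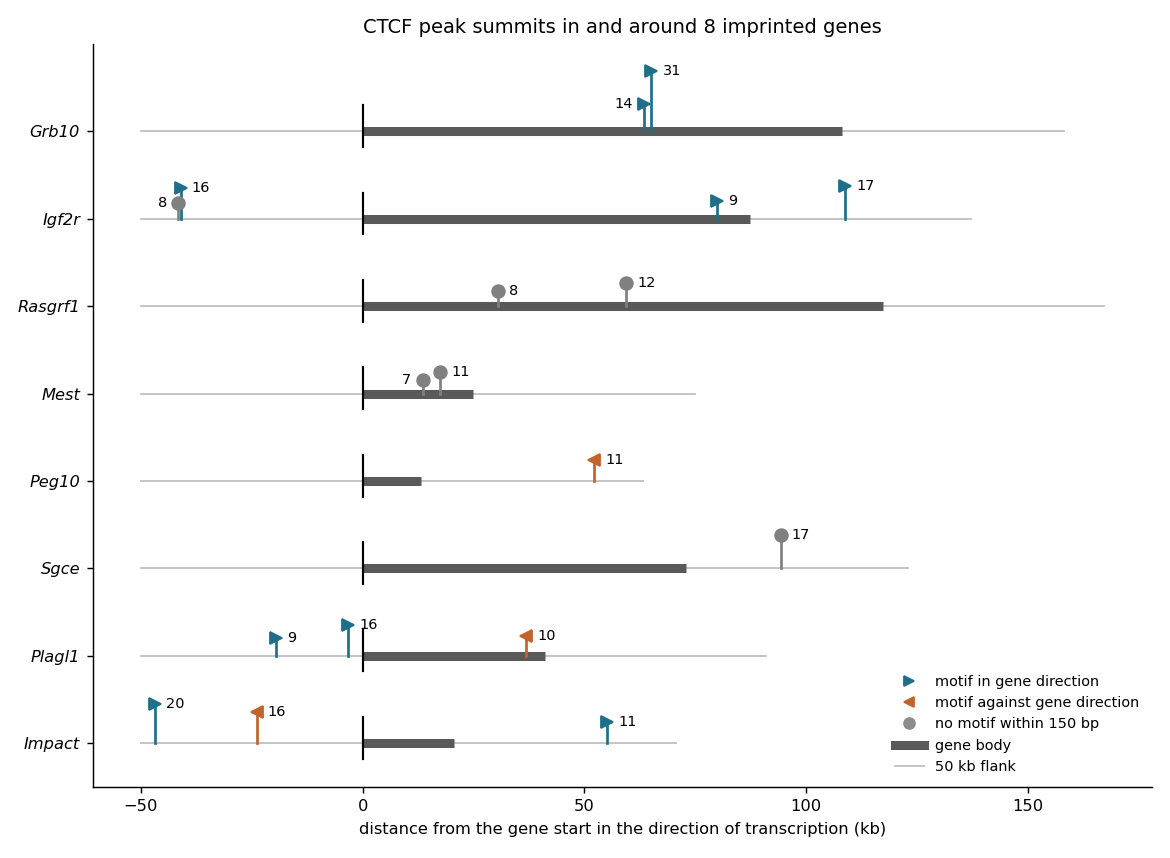
Positions of the 18 summits against the gene start (vertical bar, 0 kb) in the direction of transcription, 1 row per gene, with the gene body as a thick line and the 50 kb flanks as thin lines. Stems rise with summit height, printed in tags, and the marker gives the motif direction. No summit stands at a gene start, and the tallest, at 31 tags, lies inside Grb10.

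Within 150 bp of the 18 summits the CTCF library held 283 tags and the IgG library 22, a ratio of 12.2 after scaling to depth (exact interval 7.93 to 19.9). Over all peaks the same ratio was 14.3. The peaks were called from these tags, so the ratio describes them and does not test them. A peak is termed called here where the lower bound of its interval exceeded 2. This held for 12 of the 18 peaks, beside 58.9% of all deposited peaks. The IgG library had 0 tags at 7 of the 18 summits, where no ratio can be given and only the lower bound is used.

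**Figure D2:**
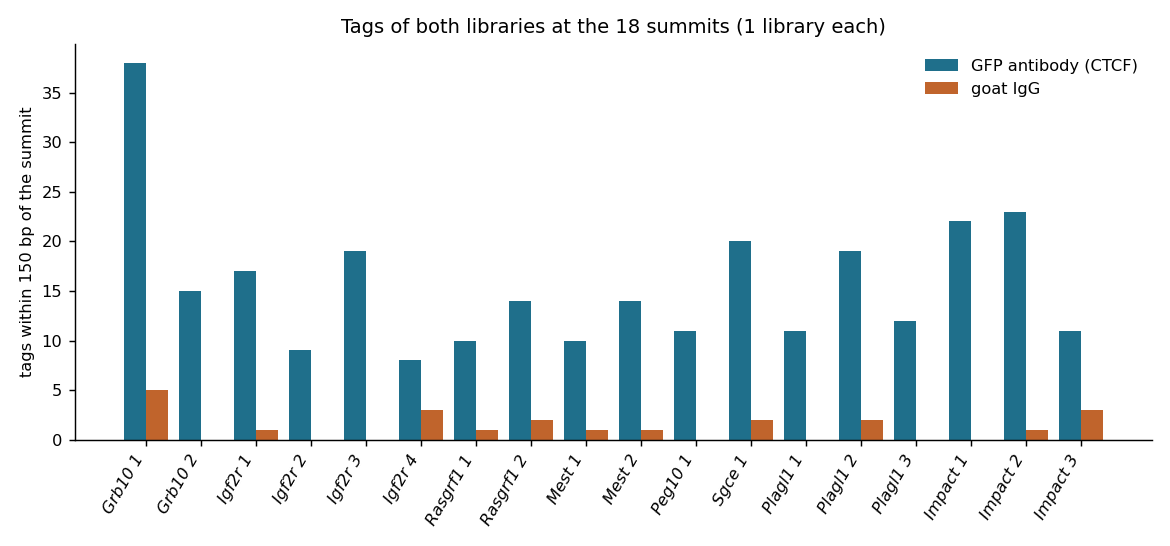
Tags within 150 bp of each of the 18 summits, in the GFP-antibody library and the goat IgG library, named by gene and peak number in chromosome order. CTCF tags run from 8 to 38 and IgG tags from 0 to 5, and the GFP-antibody bar is the taller of the pair at every summit.

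Grb10 encodes an adaptor that binds activated insulin and growth factor receptors and restrains growth. It lies on the minus strand of chromosome 11 from 11830511 to 11938686 (ENSMUSG00000020176.10). Its region held 2 peaks, both in the same part of the gene body, and none in either flank. The taller, from 11873050 to 11874042, had the highest summit of all 8 regions, 31 tags, at the 98.5th percentile of all deposited summits. It lay in an intron 65115 bp downstream of the gene start and 2926 bp upstream of the start of a shorter transcript. There the CTCF library had 38 tags and the IgG library 5, a ratio of 7.24 (2.84 to 23.6). The second peak, with its summit 63536 bp from the start, was 14 tags high, with 15 CTCF tags, 0 IgG tags and a lower bound of 3.41. The summits were 1579 bp apart, a spacing at the 5.49th percentile of neighbouring summits in the genome. Both motifs pointed along the direction of Grb10 transcription. The next summits outside the pair were far off, 252479 bp upstream of the gene start with a height of 12 and 86090 bp beyond the gene end with a height of 11.

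Grb10 has CpG-rich starts, of which those farther into the gene are used from the paternal copy in neurons. No peak was found at any of its 9 annotated starts, and none of them was called. Within 500 bp the CTCF library had 0 to 9 tags and the IgG library 0 to 6. The highest CTCF count, 9, was found at the first start and at the start 10712 bp into the gene, with 4 and 6 IgG tags. At the start 1282 bp into the gene, where the base composition was 75.7% GC, neither library had a tag within 500 bp. At the starts 11951 and 12359 bp into the gene, the CTCF library had 0 and 3 tags and the IgG library 2 and 2. Over all protein-coding gene starts, the IgG library averaged 1.12 tags at starts of at least 60% GC, 2.22 at 50% to 60% GC and 3.21 under 50% GC. The CTCF library averaged 3.34, 5.40 and 3.88 tags in the same classes, with no such steady fall. Whether GC content set the counts at Grb10 was not tested.

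Igf2r, the receptor that clears the growth factor IGF2 and sorts lysosomal enzymes, lies on the minus strand of chromosome 17 from 12875272 to 12962530 (ENSMUSG00000023830.7). Airn, a long noncoding RNA that is transcribed the opposite way and silences the paternal copy, starts inside it. Of 4 peaks, 1 lay in the Igf2r body, 2 in an Airn intron beyond the Igf2r start, and 1 beyond the Igf2r end. The tallest was the one beyond the Igf2r end. It was 17 tags high, with 17 CTCF tags and 1 IgG tag, a ratio of 16.2 (2.54 to 676). The Airn summit at 41001 bp upstream of the Igf2r start was 16 tags high, with 19 CTCF tags, 0 IgG tags and a lower bound of 4.44. It had the best motif score of the 18 summits, 22.5 bits, with the motif centre 3 bp from the summit. A smaller peak of height 8 stood 559 bp from it, with 8 CTCF and 3 IgG tags and no motif. The peak in the Igf2r body, 79845 bp from the start, was 9 tags high, with 9 CTCF and 0 IgG tags and a lower bound of 1.88. These last 2 peaks were not called. All 3 motifs of the region were on the minus strand, the direction in which Igf2r is transcribed.

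The Igf2r and Airn starts carried little signal. Within 500 bp of the Igf2r start lay 2 CTCF and 0 IgG tags, and within 500 bp of the Airn start, 28353 bp into Igf2r, lay 6 CTCF and 3 IgG tags, a ratio of 1.90 (0.407 to 11.8). Igf2r was the region in which IgG tags differed most from their surroundings, with 1.36 times the density of the 500 kb on either side (1.25 to 1.48). In the 7 other gene regions this ratio was 0.936 to 1.12. Outside the peaks, the same comparison gave 1.36 for IgG (1.25 to 1.48) and 1.05 for CTCF (0.959 to 1.15). At the 4 summits of the region the IgG library had 0 to 3 tags. What part the raised control density has in the peak calls was not tested.

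Rasgrf1, a guanine nucleotide exchange factor for RAS and RAC that is expressed from the paternal copy, lies on the plus strand of chromosome 9 from 89804613 to 89921814 (ENSMUSG00000032356.6). Its imprinting control region is known to lie upstream of the gene. No peak was found in the 50 kb upstream, where the CTCF library had 130 tags and the IgG library 161, a ratio of 0.769 (0.605 to 0.975). Outside peaks, the upstream flanks of the other genes had ratios from 0.702 at Mest to 1.12 at Impact, and the level depends on the scaling to depth. Both peaks of the region were low, intronic and not called. The taller, from 89863627 to 89864263 and 59467 bp from the start, was 12 tags high, with 14 CTCF and 2 IgG tags, a ratio of 6.66 (1.53 to 60.4). The other, 30595 bp from the start, was 8 tags high, with 10 CTCF tags and 1 IgG tag. Neither had a motif within 150 bp of its summit. The lower peak did hold a motif 263 bp from its summit, with a p-value of 1.46e-07. Around this motif the CTCF library had 8 tags and the IgG library 1, a ratio of 7.62 (1.02 to 338). Higher summits stood outside the region, 82446 bp upstream of the start with a height of 27 and, close to the edge, 50111 bp past the end with a height of 16. Their motifs faced each other, plus upstream and minus downstream, across 249.8 kb that contain the gene.

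Mest, which encodes a protein of the alpha/beta hydrolase fold and is expressed from the paternal copy, lies on the plus strand of chromosome 6 from 30673547 to 30698457 (ENSMUSG00000051855.8). Of the 8 genes it was the only one with a peak within 2 kb of an annotated transcript start of its own, and it had 2 such peaks. The taller, from 30690804 to 30691244, had its summit 230 bp downstream of a transcript start inside the gene and 287 bp upstream of Mir335, a microRNA gene in a Mest intron. It was 11 tags high, with 14 CTCF tags and 1 IgG tag, a ratio of 13.3 (2.03 to 564). Within 500 bp of that transcript start the counts were 16 and 1, the only called start among the 47 annotated transcript starts of the 8 genes. Within 500 bp of the Mir335 start they were 18 and 4, a ratio of 4.28 (1.41 to 17.4). The other peak, from 30686833 to 30687364, lay 983 bp upstream of a group of starts in a stretch of 59.6% to 59.8% GC, with a height of 7, 10 CTCF tags and 1 IgG tag, and was not called. Its deposited score of 51.0 was close to the lowest score in the list, 50. Neither Mest peak had a motif. The starts next to the lower peak had 5 CTCF and 2 IgG tags within 500 bp, a ratio with a lower bound of 0.390.

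In mm9, 91.3% of the 50 kb downstream of Mest is unsequenced, so that binding there could not be measured. The region had 1.60 peaks per 100 kb over its whole length and 2.52 per 100 kb of sequenced bases, a measure added after the gap had been seen. No unsequenced bases were found in the other 7 regions.

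Peg10, a gene derived from a retrotransposon and needed for the placenta, and Sgce, which encodes epsilon-sarcoglycan, lie head to head on chromosome 6 (Peg10 on the plus strand from 4697306 to 4710514, ENSMUSG00000092035.1, and Sgce on the minus strand from 4624350 to 4697204, ENSMUSG00000004631.9). Both are expressed from the paternal copy, and the control region is known to lie at their shared promoter. Their starts are 102 bp apart, so the counts at them come from nearly the same window, 4 CTCF tags and 1 IgG tag at Peg10 and 5 and 1 at Sgce. No peak lay in either gene body or between the genes. The Sgce peak, from 4602529 to 4603445, lay between genes 94230 bp from the Sgce start. It was 17 tags high, with 20 CTCF and 2 IgG tags, a ratio of 9.52 (2.31 to 84.0), and had no motif. The Peg10 peak, from 4749380 to 4749931, lay 52198 bp from the Peg10 start. It was 11 tags high, with 11 CTCF tags, 0 IgG tags and a lower bound of 2.39. Its motif, at 22.3 bits, pointed against Peg10 transcription and toward both genes. The interval of 147 kb between these summits, free of peaks, was at the 88.3th percentile of spacings between neighbouring summits, whose median was 25.6 kb. It was taken because it contains both gene bodies, which sets a lower limit to its length. The percentile therefore describes the interval and is not evidence of an unusual spacing.

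Plagl1, which encodes a zinc-finger transcription factor and is expressed from the paternal copy, lies on the plus strand of chromosome 10 from 12810497 to 12851500 (ENSMUSG00000019817.11). All 3 of its peaks were called and all 3 had a motif. The tallest, from 12806790 to 12807475, was the summit closest to the first start of any of the 8 genes, 3298 bp upstream. It was 16 tags high, with 19 CTCF and 2 IgG tags, a ratio of 9.04 (2.18 to 80.1). A peak 19469 bp upstream was 9 tags high, with 11 CTCF tags, 0 IgG tags and a lower bound of 2.39. The third lay in a Plagl1 exon 36822 bp from the start, was 10 tags high and had 12 CTCF tags, 0 IgG tags and a lower bound of 2.65. Both upstream motifs pointed along the gene and the exon motif pointed back, so that the tallest and the exon summit, 40120 bp apart, faced each other across the gene start. At the CpG-rich start itself, of 62.0% GC, there were 2 CTCF and 0 IgG tags.

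Impact encodes a regulator of translation that inhibits activation of the kinase GCN2 and is expressed from the paternal copy in mouse. It lies on the plus strand of chromosome 18 from 13130761 to 13151457 (ENSMUSG00000024423.5). Its 3 peaks all lay in the flanks and all had a motif. The tallest, from 13083389 to 13084319, lay in an intron of Osbpl1a, a lipid-binding protein gene, 46853 bp upstream of Impact. It was 20 tags high, with 22 CTCF tags, 0 IgG tags and a lower bound of 5.22, the highest lower bound of the 18 peaks. The summit 23891 bp upstream was 16 tags high, with 23 CTCF tags and 1 IgG tag, a ratio of 21.9 (3.56 to 902), and the motif centre lay on the summit itself. The summit 55119 bp downstream of the start was 11 tags high, with 11 CTCF and 3 IgG tags, and was not called. The pair next to the gene, 79010 bp apart, had motifs pointing away from each other, whereas the pair upstream of the gene faced each other. The direction of that upstream pair rests in part on the motif of the tallest peak. It was the weakest motif at the 18 summits, with a p-value of 8.31e-06, close to the threshold of 1e-05.

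**Figure D3:**
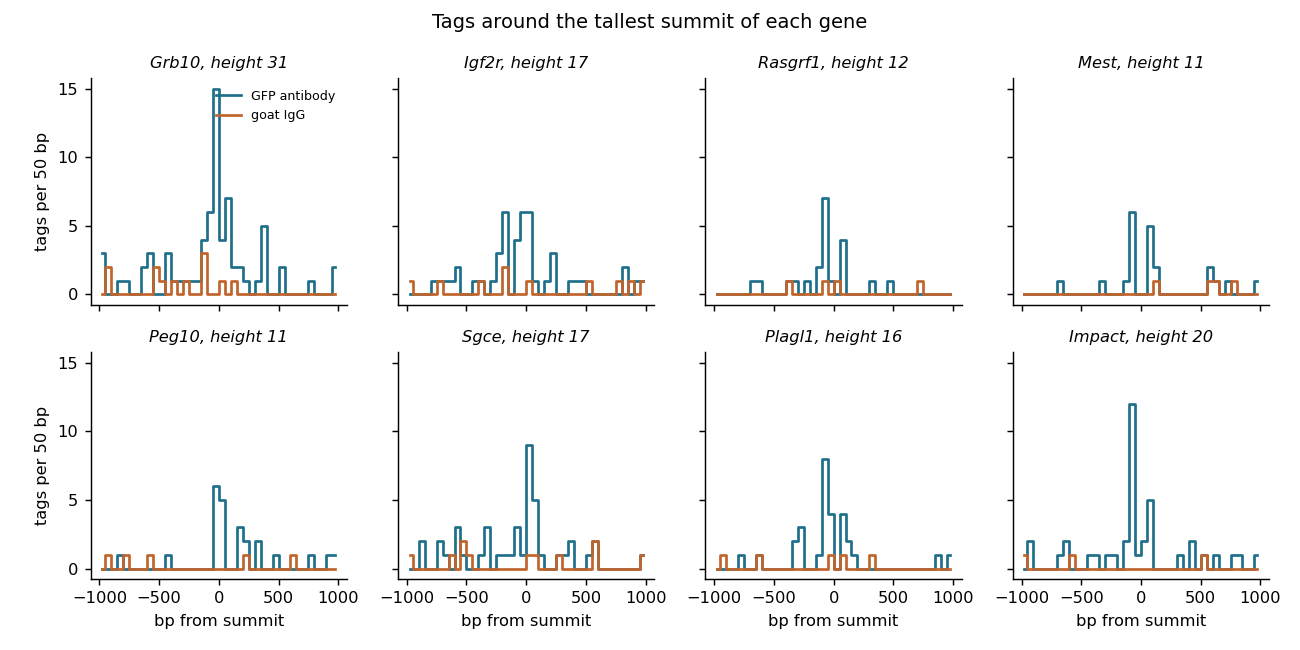
Tags per 50 bp within 1 kb of the tallest summit of each gene, as distance from the summit in bp, for the GFP-antibody and the goat IgG library. In all 8 panels the GFP-antibody tags rise near 0 bp, up to 15 in a bin at Grb10, while IgG bins hold 0 to 3 tags.

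At the gene starts, chosen from the annotation and not from the peaks, CTCF signal was low. Over the 8 first starts together, 27 CTCF and 15 IgG tags lay within 500 bp, a ratio of 1.71 (0.880 to 3.47), against 1.84 at all protein-coding starts. The Peg10 and Sgce windows overlap, and with each tag counted a single time the 7 windows held 24 CTCF and 14 IgG tags, a ratio of 1.63 (0.811 to 3.41). None of the 8 starts was called, against 3.84% of protein-coding starts. None had a summit within 1 kb, against 7.91% of protein-coding genes. At such shares a count of 0 among 8 genes is near the background. It covers the first annotated starts only. In Mest, starts 14503 and 17235 bp farther into the gene had summits 983 and 230 bp away. Among the first starts, the highest count was at Grb10, with 9 CTCF and 4 IgG tags and a ratio of 2.14 (0.598 to 9.52). The Mest start had 2 CTCF and 3 IgG tags, the Impact start 3 and 4, and the Rasgrf1 start 0 and 2. The upper bounds of the intervals ran from 4.22 at Impact to no limit at Igf2r and Plagl1, so the counts leave a wide range of ratios possible at each start.

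**Figure D4:**
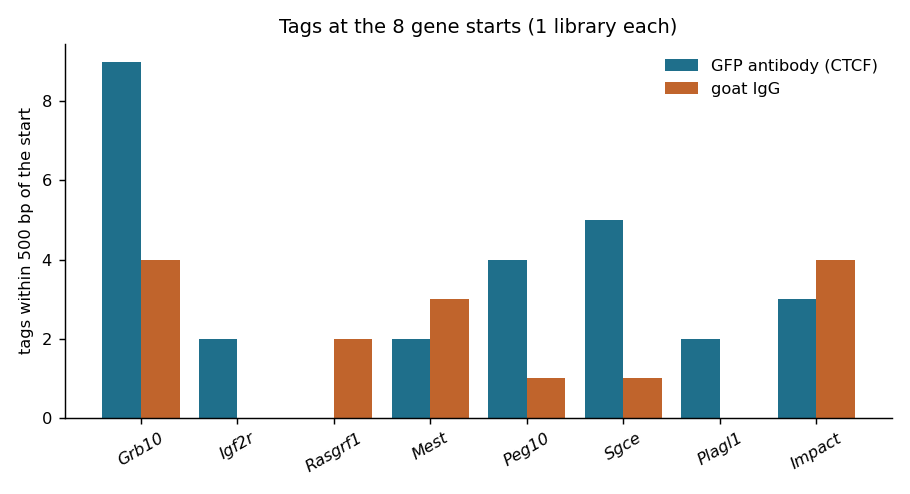
Tags within 500 bp of the first annotated start of each of the 8 genes in both libraries. CTCF tags run from 0 at Rasgrf1 to 9 at Grb10, and IgG tags from 0 to 4.

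A motif at a p-value of at most 1e-05 was found within 150 bp of 12 of the 18 summits, 66.7% (Wilson interval 43.7 to 83.7), beside 73.6% of all summits. The 6 summits without one were both of Rasgrf1, both of Mest, that of Sgce and the smaller one in Airn. Where a motif was found, its centre lay a median of 37.5 bp from the summit. Relative to the gene, 9 motifs pointed along transcription and 3 against it. The 9 came from the Grb10, Igf2r, Plagl1 and Impact regions only, with neighbouring sites counted separately, and no share over other genes was computed. None of the 18 summits was CpG-rich (at least 55% GC and an observed to expected CpG ratio of at least 0.65 in 250 bp on either side), which allows a share of up to 17.6% by the Wilson interval, beside 1.12% of all summits. Of 11 pairs of neighbouring summits in the regions, 4 had motifs in the same direction, 2 faced each other, 1 faced apart and 4 had a motif missing. Of 18298 pairs with motifs in the genome, 50.7% pointed the same way, 24.7% faced each other and 24.6% faced apart.

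Most strong motifs of the regions lay outside peaks. Of 34 matches at a p-value of at most 1e-06, 10 lay in a peak, 29.4% (Wilson interval 16.8 to 46.2), beside 24.7% of those in the genome. Around the 24 others the CTCF library had 59 tags and the IgG library 13, a ratio of 4.32 (2.34 to 8.59). The same ratio over the 67594 strong motifs outside peaks in the genome was 3.69. The match with the lowest p-value, 1.72e-10, lay in the Igf2r region 129880 bp from the gene start and in no peak, with 8 CTCF and 3 IgG tags (2.54, 0.609 to 14.9). It is printed here together with the motif inside the lower Rasgrf1 peak and a pair of matches in the Igf2r body that are identical to each other, all chosen after their values had been seen and shown without flanking bases.
Igf2r best match without a peak, chr17:12832641-12832659, minus strand: AGGCCAGCAGGGGGCACCA
Rasgrf1 lower peak, chr9:89835462-89835480, plus strand: TCACCAGCAGGGGGCCCTA
Igf2r body copy, chr17:12887856-12887874, minus strand: ACTCCAGAAGAGGGCATCA
Igf2r body copy, chr17:12955203-12955221, plus strand: ACTCCAGAAGAGGGCATCA

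The identical copies had 0 CTCF tags and 0 and 1 IgG tags. They share the core CCAGAAGAGGGC with 13 other strong matches of the regions, a core singled out after it had been seen to recur and known from B2 repeats, although no repeat annotation was used here. Of the 15 matches with this core 2 lay in a peak, those of Peg10 and of Plagl1 far upstream, and of the 19 without it 8 did. The core was picked from the matches outside peaks, so its low share in peaks within these regions was partly fixed by that choice. In the genome the shares were 11.6% of 45712 matches with the core and 38.2% of 44007 without it. Whether tags could be placed equally well in these repeated sequences was not tested.

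The density of peaks at the 8 genes lay in the lower and middle part of the range of protein-coding genes. Over the whole length of each region, it ran from 0.579 summits per 100 kb for Sgce to 2.49 for Impact, against a median of 2.19 (quartiles 0.857 and 3.93). In percentiles of protein-coding genes, Sgce was at 20.0, Peg10 at 25.7, Rasgrf1 at 26.9, Grb10 at 28.7, Mest at 38.4, Plagl1 at 49.4, Igf2r at 49.5 and Impact at 53.3. Per sequenced base, with the gap downstream of Mest left out, Mest had 2.52 summits per 100 kb and stood at percentile 53.8, the highest of the 8, next to Impact at 53.2.

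**Figure D5:**
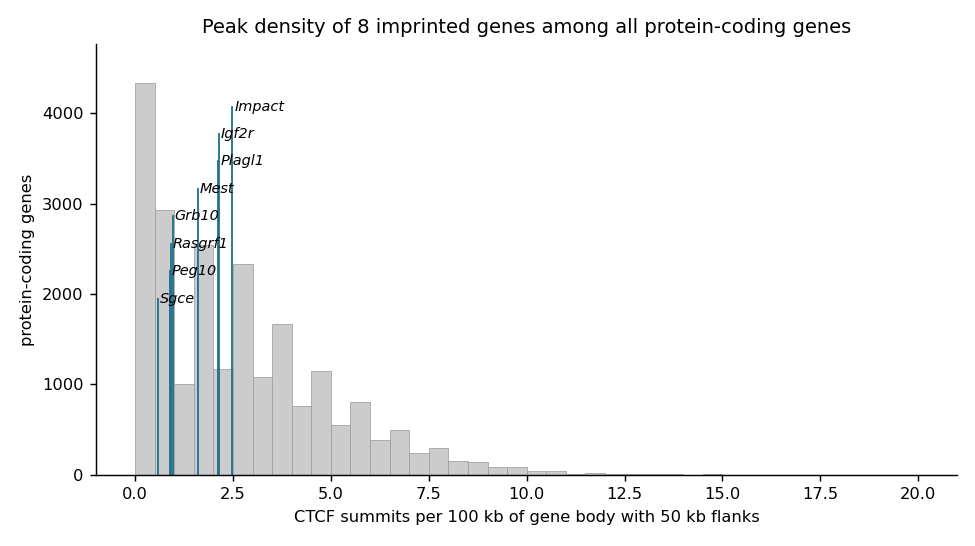
Histogram of CTCF summits per 100 kb of gene body with 50 kb flanks for 22367 protein-coding genes, with the 8 imprinted genes marked by vertical lines whose height only spaces the labels. The 8 lines lie between 0.579 and 2.49 summits per 100 kb, and the Mest line counts its unsequenced bases.

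Of 66 other imprinted genes listed from general knowledge, 61 were found in the annotation. Their median was 2.41 summits per 100 kb, beside 2.19 for all protein-coding genes. A called start was found at 5 of the 61, a larger share than the 3.84% of protein-coding starts. A summit within 1 kb of the start was found at 5, a share near the background of 7.91%. Neither count was tested, and only 55 of the 61 are protein-coding, as all genes of the background are. Those with a called start were Ube3a, Peg12, Blcap, H13 and Commd1, and at Commd1 the counts were 38 CTCF and 2 IgG tags. Of these, Ube3a had no summit within 1 kb, whereas Asb4 had a summit there without a called start (9 CTCF and 9 IgG tags). One of the listed genes, Ddc, starts in the Grb10 region, with 3 CTCF and 5 IgG tags at its start, and Airn is the other.

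Outside the peaks the regions of the 8 genes had fewer CTCF than IgG tags, 3855 against 4292, a ratio of 0.855 after scaling to depth (0.819 to 0.893). Over all protein-coding gene regions it was 0.974. Gene by gene it ran from 0.767 at Plagl1 (0.677 to 0.870) to 1.01 at Impact (0.878 to 1.16), and the interval reached 1 only at Impact and at Peg10. The level depends on the scaling, since CTCF tags inside peaks count toward the depth. Scaled by tags outside peaks, the values were 0.953 for the 8 genes and 1.09 for all gene regions.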

How the data were processed

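ChIP-seq tags of 1 CTCF library and 1 IgG library were analysed. The authors deposited 1 line per aligned 35-base tag, each with a count of 1 and no normalization, on mm9. The aligner is not given in the sources used here. The authors also deposited CTCF peaks called over IgG with MACS 1.4 (named in the submitters' processing notes), each with a score, a scaled negative log10 of its p-value, and summits with the signal, the pileup height in tags.

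From the 1000 highest scoring peaks the fragment length was 188 bp, and each tag was placed 94 bp inward of its 5′ end. Tags were counted within 150 bp of summits and 500 bp of starts. Ratios were scaled by the totals of 8391191 and 7988889 tags, with exact Clopper-Pearson intervals, and shares carry Wilson intervals, all for counting error only. No p-value between libraries was computed. The motif matrix came from 192 CTCF motif sequences in the study's supplement (pseudocount 1, background frequency 0.29 per A or T base, 0.21 per C or G base), with exact score thresholds, scanned on both strands of NCBI m37. Genes were those of GENCODE M1, and summits on chromosomes 1 to 19, X and Y (33756) gave the genome-wide values. The highest peak of each region and every peak within 2 kb of a start of the listed gene were to be given in full. The gene context and sequence of the tallest Igf2r peak are not reported here. Members, gene lists and rules were chosen with earlier results of these data known. Software was scipy 1.17.1, numba 0.67.0, numpy 2.4.6, matplotlib 3.10.9 and pandas 2.3.3 under Python 3.11.15. Scripts were tested on simulated data, in which 168 of 168 planted motifs were found with their place and strand. Only sequences that passed the threshold were planted, so this checks the scan and not its sensitivity. With a true ratio of 1, 0.02% of simulated windows were called. With true ratios above 2 the share called was 5.46% to 89.3%, depending on the ratio and the mean IgG count. A window that is not called can therefore have a true ratio above 2.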

Additional observations from a re-analysis of the deposited data

How the results depend on the processing

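In 21 of 29 recalculations, which covered 10 results, a ratio, share or median stayed inside the interval given, or a count changed by no more than 1.5 times. With flanks of 20 kb and 100 kb the regions held 10 and 30 peaks in place of 18, by the lengths taken, and 10 peaks had a score of at least 100. Within 50 bp of a summit a motif was found at 38.9% of summits, beside 36.4% over all peaks, and at a score of at least 100 at 90% of summits, beside 80.7%. Of motifs at p 1e-05 in the regions, 12.3% lay in a peak, beside 12.4% in the genome. Scaling by tags outside the peaks raised every ratio 1.11-fold, a log2 shift of 0.16, and moved the ratio outside peaks to 0.953. Over every annotated transcript start, 1 start was called, that in Mest. With tags not moved, 8 of the 18 peaks were called in place of 12, beside 48% of all peaks in place of 58.9%. The count of 0 called first starts held with windows of 250 bp and 1 kb and with the other scaling. Mest had 2.52 peaks per 100 kb of sequenced bases, which, like the merging of the overlapping Peg10 and Sgce start windows, was added after seeing the data. No paired analysis was possible because each antibody has a single library, and no replicate could be left out. Depth limits the first starts, where 0 to 9 CTCF tags per window leave wide intervals, such as 0.598 to 9.52 at Grb10. At Igf2r and Plagl1 they have no upper limit.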
